A study of Mus musculus with 12 samples.

Results

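The effect of taurocholic acid (TCA) on gene expression was compared between AML12 cells with and without copper chloride and elesclomol (Cu/ES), as an interaction between both treatments. AML12 is a continuous line of mouse hepatocytes, derived from a mouse that carried a transgene for human TGF-alpha and given as WT in the labels. Group A was kept in growth medium, group B was given Cu/ES (300 μM CuCl2, 40 nM ES), group C was given the same Cu/ES together with 1000 μM TCA, and group D was given 1000 μM TCA without Cu/ES, all for 24 h. Each group had 3 libraries of polyadenylated RNA, and all 12 libraries of the series were used. The interaction of a gene was its change between groups C and B minus its change between groups D and A, on log2(FPKM + 1). FPKM is the number of fragments scaled to the length of the gene and to the total of the library. Of the 24824 genes in the table, the 10615 with a mean FPKM of at least 1 were tested, and 370 of them passed an adjusted p of 0.05 with an absolute interaction above 1.

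Bile acids such as TCA are made from cholesterol in hepatocytes, are carried into bile, and build up in the liver in cholestasis. Elesclomol is an ionophore that carries copper into cells, where copper binds the lipoylated enzymes of the mitochondrial matrix and destabilizes iron-sulfur proteins. If both agents acted independently on the log scale, their effects would add up: the combination would lie at (B - A) + (D - A) from the untreated level, and the interaction would be 0.

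Totals, worked out from the steps between FPKM values, ran from 29115011 to 39782142 reads per library, and were lower in all 6 libraries with Cu/ES than in all 6 without. FPKM is a share of each library and the totals are counts of reads, so neither gives the number of cells or the RNA per cell. Nothing in the labels tells whether the libraries of a group came from separate cultures, so the p-values measure the spread between these libraries, which may be technical. The second library of group C stood apart from its group and often lay between group B and the other libraries of group C. Its sum of squared deviations from the group means, over the genes tested, was 353.1 against 86.6 to 189.6 in the others. The second library also deviated most within groups A (186.6), B (183.3) and D (163.2). Without the second library of group C, 521 genes passed both thresholds. Of 16 hepatocyte markers, 11 were in the table, 4 had a mean FPKM of at least 1, and *Alb* and *Hnf4a* were at or near 0 in every library. The keratins *Krt8* and *Krt18* made most of the summed level of these markers, which was 602.1 to 656.7 FPKM in A, 238.8 to 290.2 in B, 175.2 to 211.0 in C and 705.8 to 723.0 in D. Markers of Kupffer cells and macrophages summed to at most 0.6303 FPKM in any library. Of the 6 cholangiocyte markers, all were in the table, and they summed to 920.2 to 1004 FPKM in A, 1242 to 1406 in B, 739.3 to 953.2 in C and 742.7 to 790.4 in D, so that their sum was highest with Cu/ES and lower again with TCA added. *Spp1* made most of it, with an interaction of -0.55, while *Krt7* was at or near 0. The part of these markers in the results was not tested.

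In a limma fit over the 12 libraries, 186 genes had a higher and 184 a lower interaction past both thresholds, that is 3.49% of the genes tested, 1.75% higher and 1.73% lower. At the adjusted p alone 3984 genes passed (37.5%), 1877 higher (17.7%) and 2107 lower (19.8%), and 4970 had an unadjusted p under 0.05. For comparison, TCA changed 2339 genes (22.0%) without Cu/ES, of which 10.5% of the genes tested rose and 11.5% fell, and 4670 genes (44.0%) with Cu/ES, 20.4% rising and 23.6% falling, at the adjusted p alone. These comparisons share no library, but the interaction is their difference, so their calls are not separate evidence. Over all genes tested the SD of the change was 0.26 without and 0.40 with Cu/ES on the log2 scale. The nearest genes on either side of the size threshold were *Atat1*, just inside, and *S100a10*, just outside, and 8 genes beyond it missed the adjusted p. With each library rescaled to TPM (transcripts rather than fragments as the share), 624 genes passed both thresholds and the division shifted to 424 higher and 200 lower.

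The 370 genes were sorted into classes by a rule that used the same values, so the class sizes and the values behind them are a description. A gene was sign-reversed where TCA changed it in opposite directions with and without Cu/ES, each past the adjusted p. Of the others, a gene was synergistic where the combination lay further from the untreated level than the additive expectation, and antagonistic where it lay nearer or on the other side. There were 147 synergistic genes (58 with a higher and 89 with a lower interaction), 103 antagonistic genes (70 higher, 33 lower) and 120 sign-reversed genes (58 higher, 62 lower). At the adjusted p alone the classes held 1800, 1718 and 466 genes. The library that stood apart bears most on the reversed class, which held 190 genes without it. A list of functions, written with earlier results of these data known, held 62 of the 370 genes, and the others are named below only after their values were seen. The share of all genes tested that were on any list was not counted, so counts of listed genes in a class are a description only.

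**Figure D1:**
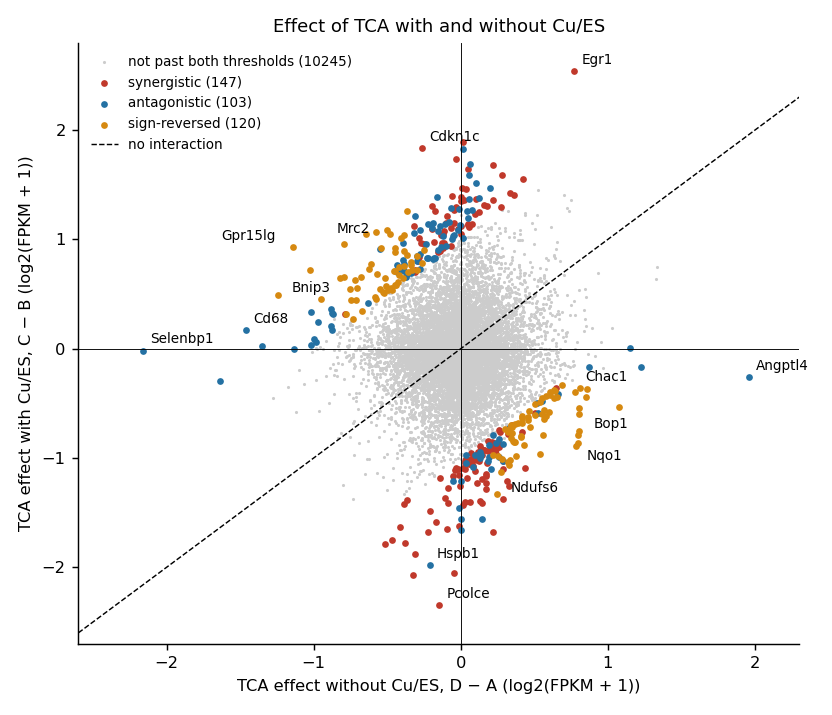
Change caused by TCA without Cu/ES (D - A, horizontal) and with Cu/ES (C - B, vertical) in log2(FPKM + 1), 1 point per gene for 10615 genes, coloured by class. Points on the dashed line have no interaction; the 120 sign-reversed genes lie at the upper left and lower right, and most of the 147 synergistic genes lie near the vertical axis, with little change in group D.

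Most of these genes were changed by TCA when Cu/ES was present. Of the 147 synergistic genes, 140 were changed by TCA with Cu/ES and not without it at the adjusted p. Of the 103 antagonistic genes, 80 were changed by TCA with Cu/ES only and 21 without Cu/ES only. In synergistic genes with a lower interaction the median change was 0.11 without and -1.09 with Cu/ES, and the combination lay at -2.51 from the untreated level where -1.25 was expected. Synergistic genes with a higher interaction had medians of -0.04 and 1.15, and lay at 2.35 where 1.02 was expected. Antagonistic genes with a higher interaction had an expected median of -1.37 and lay at -0.20, and those with a lower interaction had an expected median of 1.26 and lay at 0.26. In 32 of the 103 antagonistic genes the combination passed the test against group A on the side opposite to the expectation.

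**Figure D2:**
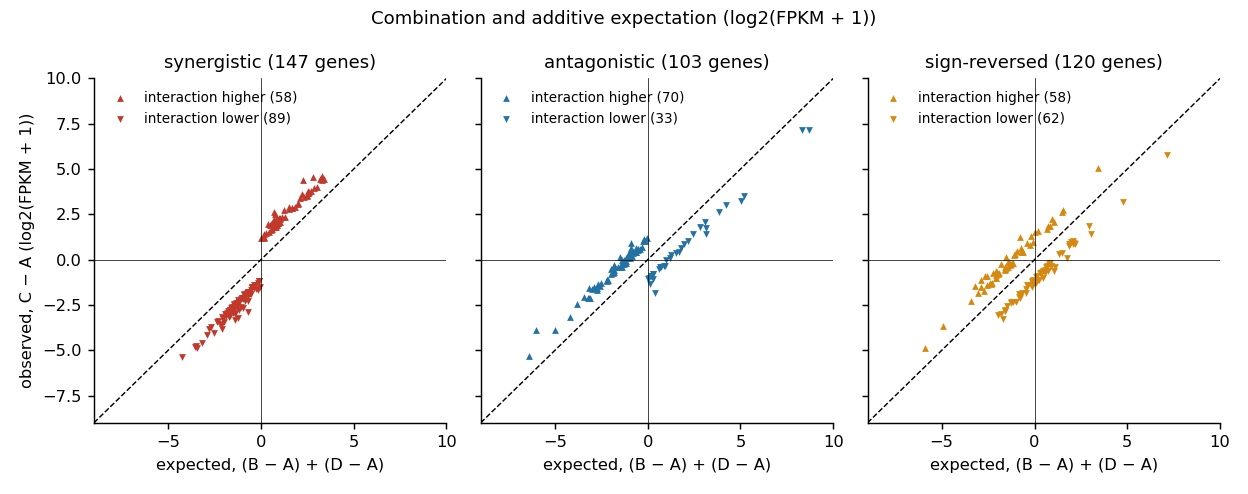
Observed level of the combination against group A (C - A, vertical) and the additive expectation (B - A) + (D - A) (horizontal), both in log2(FPKM + 1), for the 147 synergistic, 103 antagonistic and 120 sign-reversed genes. The dashed line marks equality, and synergistic genes lie on the far side of it from 0, at medians of 2.35 and -2.51. Antagonistic genes lie on its other side, at medians of -0.20 and 0.26. Of these, 32 passed the test against group A on the side of 0 opposite to the expectation.

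The class of a gene also depends on where the Cu/ES effect is set. The median change for B vs. A over all genes was -1.10, against -0.01 without and -0.03 with Cu/ES. Median-ratio scaling brought the first to -0.03: 358 of the 370 genes passed again, and 277 were in the same class. With TPM the median was -1.56, 344 passed again and 307 kept their class, and with quantile normalization it was -0.10, with 254 and 210. With the Cu/ES effect taken relative to its median, 308 of the 370 kept their class. Of the genes named below, *Pcolce*, *Ndufs6*, *Ndufa12*, *Uhrf1* and *Csf1* turned from synergistic to antagonistic by that measure, and *Ovgp1*, *Coq3* and *Pfkfb4* from antagonistic to synergistic. Reversal of sign does not use the Cu/ES effect.

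Sign-reversed genes with a lower interaction were raised by TCA and lowered by TCA with Cu/ES, at median changes of 0.47 and -0.68. They include genes of the response to amino acid and electrophile stress and many factors that build ribosomes. *Nqo1*, a quinone reductase and classical target of the transcription factor NRF2, had 12.6, 16.3 and 12.7 FPKM in A, 17.3, 15.3 and 17.3 in B, 8.27, 8.66 and 8.60 in C and 25.4, 23.2 and 24.8 in D. All libraries of group D lay above all others, and all of group C lay below all others. Its interaction was -1.67 ± 0.13 (± its standard error, adjusted p = 5.08e-06 by limma with Benjamini-Hochberg). *Chac1*, a glutathione-degrading enzyme induced through the transcription factor ATF4, had 33.0, 30.8 and 34.9 FPKM in A, 30.9, 27.7 and 27.5 in B, 22.5, 22.2 and 20.1 in C and 58.6, 48.8 and 64.5 in D. The order was the same, with group D on top and group C at the bottom without overlap. Its interaction was -1.17 ± 0.13 (limma with Benjamini-Hochberg, adjusted p = 5.32e-05).

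Of 25 tested genes of the ATF4 response, which serves amino acid supply and recovery of protein synthesis, 16 had a lower and 0 a higher interaction at the adjusted p. Over the alternatives 14 to 18 of the 25 were lower, not always with the same members. The median interaction was -0.69, from medians of 0.48 without and -0.13 with Cu/ES. TCA without Cu/ES raised 18 of the 25 and lowered 0, against 10.5% and 11.5% of all genes. With Cu/ES, TCA raised 4 and lowered 11. At the adjusted p, 9 of the 16 were sign-reversed. *Fgf21*, a stress-induced hormone of the liver, was at 2.49 ± 0.675 FPKM in group A and 4.12 ± 0.724 in group D (mean ± SD, n = 3), but at 8.82 ± 0.884 in group B and 5.28 ± 0.483 in group C, an interaction of -1.21. *Gdf15*, another stress hormone, was antagonistic, with an interaction of -1.16 that missed the adjusted p under quantile normalization (-1.05) and when genes above 0 in at least 2 libraries were all tested. No gene of the list had a higher interaction at an adjusted p of 0.05 in any alternative.

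The bases before the start of *Chac1* are shown because the ATF4 list moved together. The window holds the 250 bases before the RefSeq start (build GRCm38.p6, chromosome 2, 119350992 to 119351241, plus strand), written 5′ to 3′ with each match of TGANGCAA, the core of the element that ATF4 shares with C/EBP proteins, in capitals on either strand. Its matches begin 250 and 193 bases before the start.
Chac1: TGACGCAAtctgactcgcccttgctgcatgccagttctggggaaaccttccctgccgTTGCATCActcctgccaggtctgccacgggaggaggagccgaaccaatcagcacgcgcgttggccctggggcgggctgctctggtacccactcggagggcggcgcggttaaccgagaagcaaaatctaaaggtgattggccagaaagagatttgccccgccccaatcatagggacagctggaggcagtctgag
Of the 25 genes of the list, 23 had a promoter of 300 bases in the RefSeq table, and 5 of these (21.7%) held the letters on either strand, against 3.7% of the 8504 tested genes with a promoter and 3.7% of all 32851 promoters. Most genes of the list with a lower interaction, 10 of 15, did not hold them in this window.

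Ribosome biogenesis factors act in the nucleolus to process ribosomal RNA and assemble both ribosomal subunits. The list of 78 such genes was drawn up after their values were seen. In it 58 had a lower and 3 a higher interaction at the adjusted p, and 13 were lower past both thresholds. The medians were 0.43 without and -0.11 with Cu/ES, giving an interaction of -0.53. TCA raised 60 of the 78 genes without Cu/ES, whereas with Cu/ES it raised 11 and lowered 28, and 25 were sign-reversed at the adjusted p. *Bop1*, a processing factor of the large subunit, was at 17.7, 19.9 and 18.7 FPKM in A, 23.2, 23.2 and 24.9 in B, 12.6, 15.5 and 13.1 in C and 31.9, 34.8 and 33.7 in D. The 4 groups did not overlap, with D highest and C lowest, and the interaction was -1.56 ± 0.11 (limma with Benjamini-Hochberg, adjusted p = 4.85e-06). *Grwd1*, a nucleolar histone-binding protein, had an interaction of -1.66: TCA moved it from 9.17 ± 1.16 to 16.6 ± 0.912 FPKM without Cu/ES and from 18.6 ± 1.05 to 9.81 ± 0.803 with Cu/ES, so that the combination lay near the untreated level. The box genes *Nop56* (-1.10), *Dkc1* (-1.19) and *Nhp2* (-1.03), which modify ribosomal RNA, were in the same class. So were *Srm* (-1.40), for spermidine synthesis, and *Ctps* (-1.09), for CTP synthesis, named after their values were seen. The structural proteins of the cytosolic ribosome stood apart from these factors: only 1 of 76, *Rps2* (-0.48), passed for the interaction, with a list median of -0.10. That count is not stable: *Rps2* missed when all genes above 0 in at least 2 libraries were tested, without the library of group C that stood apart, 21 of the 76 were lower, and under quantile normalization 6 were higher and the median was 0.02.

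**Figure D3:**
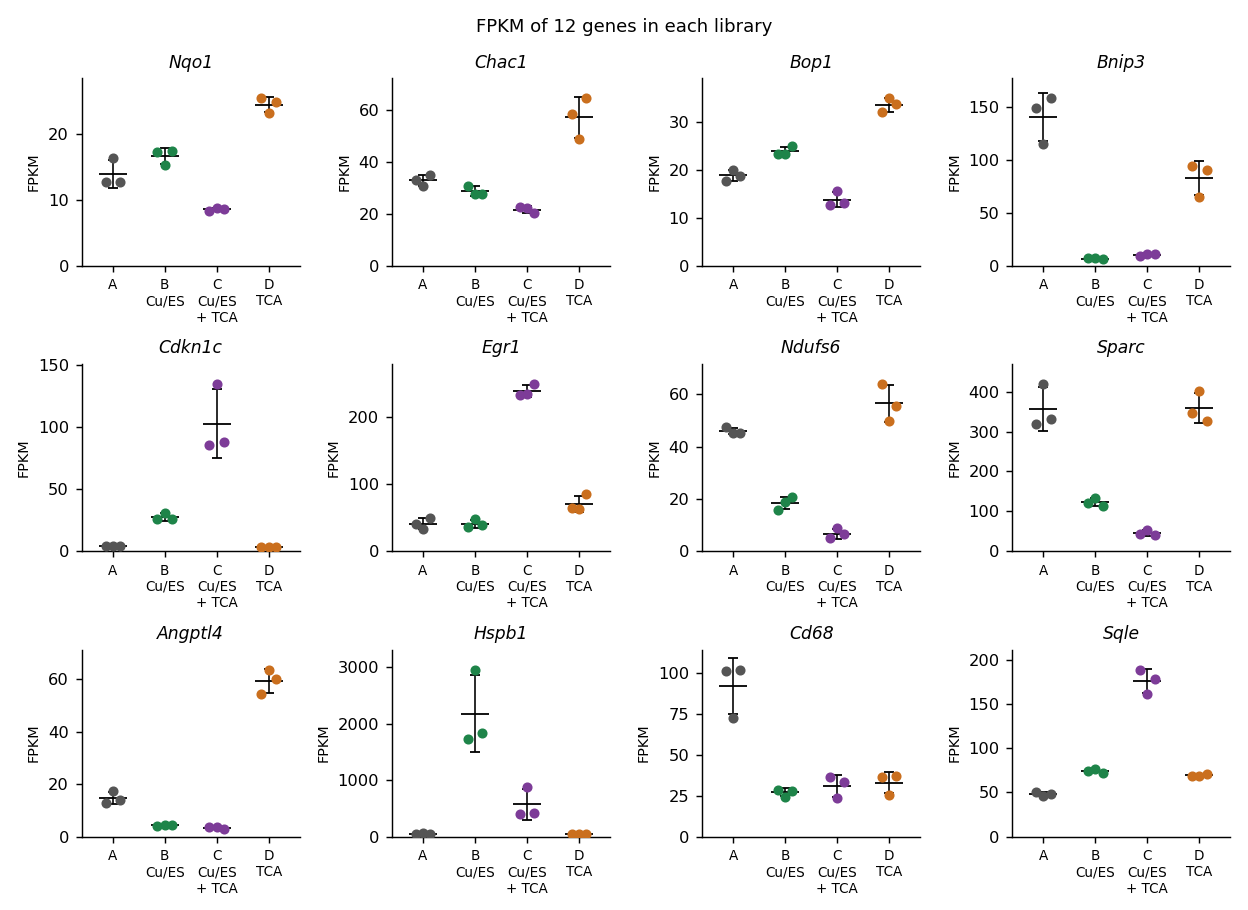
FPKM of 12 genes in each of the 12 libraries, 1 point per library, with the mean and SD of each group (n = 3) in black; each vertical axis starts at 0. *Nqo1*, *Chac1* and *Bop1* are highest in group D and lowest in group C, *Egr1* and *Cdkn1c* are highest in group C, and *Angptl4* is high in group D only.

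NRF2 targets, which detoxify electrophiles and supply glutathione, had 19 lower and 0 higher of 28 at the adjusted p, with a median of -0.51 made of 0.22 without and -0.30 with Cu/ES. TCA raised 12 and lowered 2 of them without Cu/ES, and raised 3 and lowered 14 with it. *Txn1* (thioredoxin, -0.92) and *Gstm1* (a glutathione transferase, -0.92) passed the adjusted p but not the size threshold, and *Nqo1* was the 1 gene of the list past both. *Hmox1*, which breaks down heme, was at 28.6 ± 6.50 FPKM in group A and 29.1 ± 5.22 in group D, and at 2693 ± 227 in group B and 1603 ± 142 in group C, an interaction of -0.78 (limma with Benjamini-Hochberg, adjusted p = 0.0130) that missed under quantile normalization (-0.62) and when genes above 0 in at least 2 libraries were all tested. Other sign-reversed genes with a lower interaction were *Ankrd1* (-1.58), a cofactor induced by stretch and YAP, *Ccn1* (-1.35), a matricellular YAP target, *Slc29a1* (-1.57), a nucleoside transporter, and *Mettl7b* (-1.61), a methyltransferase of the endoplasmic reticulum. *Ccn1* was named after its values were seen.

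Genes lowered by TCA without Cu/ES and raised with it included *Bnip3*, a mitophagy receptor induced by hypoxia. It had 148, 114 and 158 FPKM in A, 6.72, 7.10 and 6.01 in B, 8.78, 10.6 and 11.1 in C and 93.8, 64.7 and 90.1 in D. Group D lay below group A and group C above group B without overlap, and the interaction was 1.31 ± 0.20 (limma with Benjamini-Hochberg, adjusted p = 3.61e-04). With Cu/ES its level was far below that without, so the reversal took place at very different levels. *Mrc2*, an endocytic collagen receptor, was at 24.0, 24.3 and 23.1 FPKM in A, 3.21, 4.37 and 3.36 in B, 7.24, 8.47 and 8.23 in C and 12.1, 14.9 and 13.02 in D. In this gene too each TCA library lay outside the range of its reference group, on opposite sides, and the interaction was 1.75. *Elmod3*, a GTPase-activating protein, was high only with Cu/ES: 4.14 ± 0.356 FPKM in group A and 2.44 ± 0.273 in group D, but 80.2 ± 2.34 in group B and 169.9 ± 22.6 in group C. *Gpr15lg*, a chemokine-like ligand, had an interaction of 2.07, and the small GTPase *Rab13*, which acts at tight junctions, 1.63. Also in this class, and named after their values were seen, were the forkhead factor *Foxo3* (1.03), the stress regulator *Crebrf* (1.45), the histone demethylase *Kdm3a* (1.53), the lipid phosphatase *Lpin1* (1.03) and the deacetylase *Sirt2* (1.16).

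The hypoxia and glycolysis list, which holds targets of HIF and glycolytic enzymes, had 15 higher and 3 lower of 29 at the adjusted p, and 4 higher past both thresholds. Its medians were -0.26 for D vs. A, 0.09 for C vs. B and 0.49 for the interaction. TCA lowered 12 of the 29 without Cu/ES and raised 0. At the adjusted p, 13 of the 18 were antagonistic, since Cu/ES lowered most of the list (median -1.48). The second library had the lowest list median in each of the 4 groups. *Ndrg1*, a differentiation and stress gene, was at 222, 156 and 236 FPKM in A, 67.7, 52.7 and 72.1 in B, 148, 117 and 151 in C and 202, 132 and 206 in D. Group C lay above group B without overlap, while groups A and D overlapped, and the interaction was 1.29. *Pfkfb4*, a regulator of glycolytic flux, returned from 2.17 ± 0.571 FPKM in group B to 6.02 ± 1.47 in group C, beside 5.31 ± 0.410 in group A.

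The 250 bases before the start of *Bnip3* (build GRCm38.p6, chromosome 7, 138909507 to 138909756, minus strand) are shown with the letters ACGTG, the core of the hypoxia response element, in capitals. They occur on both strands at 1 place, where the matches overlap and begin 108 and 107 bases before the start, and there they also make a CACGTG box.
Bnip3: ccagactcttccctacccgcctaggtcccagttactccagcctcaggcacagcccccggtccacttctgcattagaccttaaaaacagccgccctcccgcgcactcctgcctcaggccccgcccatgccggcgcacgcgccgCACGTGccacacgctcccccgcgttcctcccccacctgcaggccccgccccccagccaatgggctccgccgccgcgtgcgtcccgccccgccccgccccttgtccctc
Of the 27 listed genes with a RefSeq promoter, 20 (74.1%) held ACGTG on either strand, against 30.5% of tested genes and 19.6% of all promoters, and so did 9 of the 13 with a higher interaction.

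Lysosomal genes followed a like pattern at smaller size, with 14 higher and 1 lower of 35 at the adjusted p and medians of -0.28 for D vs. A, -0.07 for C vs. B and 0.22 for the interaction. TCA lowered 20 of the 35 without Cu/ES and raised 0. *Cd68*, a lysosomal membrane glycoprotein, had 102, 72.5 and 102 FPKM in A, 28.9, 24.4 and 28.3 in B, 36.4, 23.8 and 33.3 in C and 36.4, 25.5 and 37.0 in D. The 3 treated groups overlapped, all below group A, so either agent brought the gene to about the same level and the combination went no further. The interaction was 1.63 ± 0.25 (limma with Benjamini-Hochberg, adjusted p = 2.95e-04). *Gpnmb* (1.35), a transmembrane glycoprotein of lysosomes and melanosomes, behaved alike, at 49.5 ± 11.2 FPKM in A, 22.8 ± 2.21 in B, 18.4 ± 0.604 in C and 15.1 ± 2.47 in D. *Neu1*, a lysosomal sialidase, was at 15.1 ± 2.56, 10.3 ± 1.15, 12.99 ± 0.825 and 7.77 ± 1.04 FPKM in groups A, B, C and D. The letters TCACGTG, found in the element bound by TFEB, occurred in the promoters of 10 of 27 listed genes (37.0%), against 7.3% of tested genes and 3.8% of all promoters.

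Of the 89 synergistic genes with a lower interaction, 20 were on a list: 10 were complex I subunits, 2 belonged to complexes II to IV, 3 were NF-kB targets and chemokines and 2 were matrix genes. In complex I, which passes electrons from NADH to ubiquinone, all 37 nuclear-encoded subunits tested had an interaction below 0, 31 at the adjusted p and 11 past both thresholds. The list median was -0.66, from 0.02 without and -0.69 with Cu/ES. *Ndufs6*, a subunit of the peripheral arm, had 47.3, 45.2 and 45.2 FPKM in A, 15.8, 18.9 and 20.6 in B, 4.82, 8.66 and 6.36 in C and 63.9, 49.95 and 55.7 in D. Group D lay above group A and group C below group B, without overlap, although the change for D vs. A (0.29) did not pass. The interaction was -1.66 ± 0.21 (limma with Benjamini-Hochberg, adjusted p = 1.01e-04). *Ndufa12* (-1.55) and *Ndufb4* (-1.32) followed. Of the 14 assembly factors of complex I, which are not part of the finished enzyme, 3 were lower and 1 higher at the adjusted p, with a median of -0.13. The median of the assembly factors became 0.05 when a mean FPKM of at least 5 was required. Between 25 and 32 of the 37 subunits passed, all of them lower, over the alternatives.

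The other complexes went the same way. Complexes II to IV had 15 lower and 0 higher of 25 with a median of -0.54, ATP synthase 11 lower and 0 higher of 15 with -0.39, and the mitochondrial ribosome 39 lower and 2 higher of 78 with -0.34. Several members were sign-reversed rather than synergistic, because TCA without Cu/ES raised them. *Uqcrq* of complex III had 68.5, 61.9 and 75.3 FPKM in A, 64.8, 60.0 and 72.3 in B, 27.8, 39.1 and 33.4 in C and 119, 77.1 and 108 in D. Groups A and B overlapped, group D lay above them and group C below. *Cycs* (cytochrome c, -1.31), *Atp5g1* (a c-ring precursor, -1.36) and *Mrpl12* (-1.24) were of the same class. The median Cu/ES effect was -0.84 for complex I subunits, -0.22 for complexes II to IV and -0.12 for ATP synthase. It was -1.26 for the mitochondrial ribosome and -1.10 over all genes tested. For the first 3 lists the effect was thus less negative than that of all genes. Their sorting as synergistic depends on where the Cu/ES effect is set. Of 23 genes of lipoylation and the citric acid cycle 12 were lower and 3 higher, with *Idh2* at -0.92 and *Pdhx*, the E3-binding protein of pyruvate dehydrogenase, at -0.90. Fatty acid oxidation had 7 lower (31.8%) and 2 higher (9.09%) of 22, against 19.8% and 17.7% of all genes tested. Its median was -0.12, and 3 were lower under quantile normalization. *Etfb* (-1.25), which hands electrons from acyl-CoA dehydrogenases to the chain, passed both thresholds. The 13 protein-coding genes of the mitochondrial genome, a list drawn up after their values were seen, had a median of 0.20, with 2 higher (*COX3*, 0.67, and *COX1*, 0.48) and 0 lower. *COX1* had an interaction of 0.0 under quantile normalization.

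The 4 genes that the study followed as markers of copper toxicity were divided. *Dlat*, the acetyltransferase of pyruvate dehydrogenase, had 20.8, 18.8 and 20.4 FPKM in A, 8.52, 7.86 and 9.55 in B, 5.58, 5.49 and 5.82 in C and 19.9, 19.4 and 21.3 in D. Groups A and D overlapped and group C lay below group B, so that the combination was further from the untreated level than the expectation of -1.11, at -1.66. *Dlst*, the matching subunit of the oxoglutarate dehydrogenase, lay at -0.86 where -0.47 was expected. Both expectations include the Cu/ES effect, whose median over all genes tested was -1.10. That of *Dlat* was close to this median and that of *Dlst* was less negative. Whether the 2 genes count as synergistic therefore depends on where the Cu/ES effect is set. *Fdx1* lay at -2.18 where -2.36 was expected and *Lias* at -2.24 where -2.07 was expected, and neither departure passed (interactions of 0.18 and -0.17, standard errors 0.14 and 0.13, adjusted p = 0.328 and 0.326 from limma). The low level of *Fdx1* with Cu/ES, 0.220 to 0.669 FPKM, leaves its sign to the pseudocount.

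Matrix and collagen genes had 13 lower and 0 higher of 22 at the adjusted p and 5 lower past both thresholds, with a median of -0.66. *Pcolce*, an enhancer of procollagen processing, had the lowest interaction among named synergistic genes, and became antagonistic when the Cu/ES effect was taken relative to its median. It had 219, 274 and 216 FPKM in A, 153, 191 and 149 in B, 25.7, 47.4 and 25.01 in C and 198, 258 and 186 in D. Groups A and D overlapped, and group C lay far below group B. Its interaction was -2.20 ± 0.29 (limma with Benjamini-Hochberg, adjusted p = 1.16e-04). *Sparc*, a matrix glycoprotein, had 318, 420 and 331 FPKM in A, 121, 134 and 114 in B, 43.2, 53.2 and 39.9 in C and 347, 402 and 328 in D, an interaction of -1.44. *Serpinh1*, the collagen chaperone, was at 517 ± 31.2, 391.6 ± 14.1, 178 ± 14.5 and 624 ± 0.188 FPKM in groups A, B, C and D and was sign-reversed (-1.40). Stellate cell and fibroblast markers, of which 7 of 8 were in the table, summed to 22.19 to 39.06 FPKM in A, 1.915 to 3.538 in B, 1.215 to 1.961 in C and 14.29 to 26.95 in D. Their part in the result was not tested. *Cyba* (-2.0), a subunit of the NADPH oxidase, and *Tpm2* (-1.90), a tropomyosin, were the next named synergistic genes.

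NF-kB targets and chemokines had 10 lower and 0 higher of 24 (6 lower of the 17 left when every group had to have a mean FPKM of at least 1), with medians of 0.30 for D vs. A, -0.16 for C vs. B and -0.37 for the interaction. TCA raised 10 and lowered 0 of them without Cu/ES, against 10.5% and 11.5% of all genes tested. With Cu/ES it raised 3 and lowered 6, against 20.4% and 23.6% of all genes tested, so the count lowered is close to the share of all genes. *Ccl2*, a monocyte chemoattractant, had 186, 333 and 185 FPKM in A, 31.0, 42.6 and 37.3 in B, 14.3, 23.1 and 14.1 in C and 297, 347 and 274 in D. Groups A and D overlapped because the second library of group A was high, and group C lay below group B. At each library number group D lay above group A. *Csf1* (-1.58), the macrophage growth factor, and *Ccl7* (-1.18) were also synergistic. Members of other immune families in this class, named after their values were seen, were *Ccl5* (-1.09), the antiviral membrane proteins *Ifitm1* (-1.46) and *Ifitm3* (-1.40), the Ly6 surface proteins *Ly6a* (-1.41), *Ly6c1* (-1.27) and *Ly6e* (-1.52), and the proteasome activator subunits *Psme1* (-1.07) and *Psme2* (-1.15). *Ifitm1* and *Ifitm3*, and the Ly6 genes, are families of similar sequence whose reads could be divided between copies. The interferon list as a whole had 2 higher and 1 lower of 23.

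DNA replication and repair genes had 22 lower and 0 higher of 40 with a median of -0.41, and genes of mitosis 14 lower and 2 higher of 36 with -0.23. *Uhrf1* (-1.04), which keeps DNA methylation, was synergistic, and *Rrm2*, the ribonucleotide reductase subunit, was antagonistic. *Rrm2* had 43.4, 49.9 and 44.5 FPKM in A, 84.0, 94.0 and 88.6 in B, 41.8, 53.7 and 40.2 in C and 46.8, 50.4 and 44.1 in D. Only group B stood out, so that TCA brought the gene back to about the untreated level when Cu/ES was present. The libraries of group C lay on both sides of the range of group A. *Top2a* (-0.87), the mitotic topoisomerase, passed the adjusted p alone. *Ccnd1* (-1.10), the G1 cyclin, was synergistic and was named after its values were seen.

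Of the 58 synergistic genes with a higher interaction, 2 were on any list, without a share of all genes tested to set beside it. *Cdkn1c*, the cell cycle inhibitor p57, had 3.74, 3.76 and 4.10 FPKM in A, 25.6, 30.9 and 25.8 in B, 85.2, 134 and 87.8 in C and 3.18, 3.04 and 2.92 in D. The order of the groups was C, B, A and D without overlap. Its interaction of 2.10 ± 0.20 was the largest in this class (limma with Benjamini-Hochberg, adjusted p = 1.39e-05), a 4.30-fold excess over the additive expectation on the scale of FPKM + 1. *Egr1*, an immediate early transcription factor, had 40.7, 32.3 and 49.8 FPKM in A, 35.8, 47.0 and 38.1 in B, 232, 233 and 248 in C and 64.0, 62.4 and 84.1 in D. Cu/ES without TCA left it within the range of group A, TCA raised it, and the combination was highest by far, with an interaction of 1.77 ± 0.21 (limma with Benjamini-Hochberg, adjusted p = 6.01e-05). This was not shared by its list: of 25 immediate early genes 4 were higher and 7 lower, with a median of -0.15. *Jund* (0.80) was among the higher and *Ier2* (-0.89) among the lower. *Polg2* (1.5), the accessory subunit of the mitochondrial DNA polymerase, and *Ss18l1* (1.44), a subunit of neuronal chromatin remodelling complexes, were higher too. *Serpinf2* (1.46), the plasmin inhibitor of plasma, rested on at most 8 reads per library without Cu/ES and did not pass with limma-voom on recovered reads (1.90). Named after their values were seen were *Klf9* (1.34), a factor that answers to glucocorticoids, *Irs2* (1.21), the insulin receptor substrate, *Tsc1* (1.23), which restrains mTORC1, and *Asgr1* (1.42), the asialoglycoprotein receptor of hepatocytes. *Pecam1* (1.25) is an endothelial marker: it was at 0.16 to 0.29 FPKM in A, 5.31 to 9.55 in B, 13.96 to 18.17 in C and 0.10 to 0.19 in D, while the endothelial list summed to 0.9218 to 1.16, 6.79 to 10.53, 16.51 to 19.73 and 0.8652 to 1.25 FPKM and 2 of its 5 genes in the table were under 0.1 in every library. Of the 57 genes in RefSeq, 11 were not protein-coding (19.3%), against 4.35% of all genes tested. In 15 of the 58 the mean was under 10 reads in both group A and group D, against 168 of all 10615 genes tested.

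Of the 33 antagonistic genes with a lower interaction, 26 were changed by TCA with Cu/ES only, 5 without Cu/ES only and 2 by neither, at the adjusted p. Cu/ES raised 24 of the 33 and lowered 3. The 10 on a list came from 9 lists. *Angptl4*, an inhibitor of lipoprotein lipase and a PPAR target, had 12.7, 17.2 and 13.8 FPKM in A, 4.10, 4.37 and 4.35 in B, 3.61, 3.76 and 2.90 in C and 54.4, 63.6 and 60.0 in D. Group D was high alone, and groups B and C lay below group A. It had the largest interaction in size of the genes named, -2.22 ± 0.15 (limma with Benjamini-Hochberg, adjusted p = 3.98e-06). The PPAR list had 8 tested genes, of which 4 were lower and 1 higher. *Serpinb2* (-1.39), an inhibitor of plasminogen activators, and *Nppb* (-1.15), a natriuretic peptide, shared the pattern of *Angptl4* and were named after their values were seen.

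The heat shock genes in this class were *Hspb1* and *Hspa1a*. *Hspb1*, a small heat shock protein, had 51.9, 61.4 and 52.8 FPKM in A, 1730, 2954 and 1831 in B, 402, 887 and 426 in C and 46.3, 48.0 and 48.5 in D. Group C lay between group B and the untreated level without overlap, and its second library lay highest within it, as that of group B did. The interaction was -1.77 ± 0.35 (limma with Benjamini-Hochberg, adjusted p = 1.83e-03). *Hspa1a*, an inducible HSP70, had 0 to 1 reads per library in groups A and D, so its interaction is the change between groups B and C, from 338, 682 and 308 to 108, 185 and 138 FPKM. With limma-voom on recovered reads the interaction of *Hspa1a* did not pass, at -2.06. The gene is one of a pair of near-identical genes whose reads could be divided. Of 29 heat shock genes 16 were lower and 1 higher at the adjusted p, with a median of -0.36, from 0.14 without and -0.20 with Cu/ES after a Cu/ES effect of 1.83. Proteasome subunits, also higher with Cu/ES (median 1.44), had 14 lower and 1 higher of 33 with a median of -0.24, and 25 lower without the library of group C that stood apart. *Lce1f* (-1.66) and *Lor* (-1.70) are genes of the cornified envelope of skin. *Lce1f* had no read in groups A and D, 30.0, 42.6 and 33.4 FPKM in group B and 7.47, 16.5 and 9.03 in group C, and did not pass with limma-voom.

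The 250 bases before the start of *Hspb1* (build GRCm38.p6, chromosome 5, 135887669 to 135887918, plus strand) are shown with the letters GAANNTTC, a pair of facing units of the heat shock element, in capitals. The motif reads the same on both strands, and its matches begin 117 and 97 bases before the start.
Hspb1: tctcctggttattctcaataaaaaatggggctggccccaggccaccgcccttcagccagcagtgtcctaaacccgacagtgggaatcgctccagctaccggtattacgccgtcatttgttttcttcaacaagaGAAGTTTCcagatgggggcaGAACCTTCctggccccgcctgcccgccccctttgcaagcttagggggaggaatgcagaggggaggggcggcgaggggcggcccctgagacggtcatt
Of 23 heat shock genes with a RefSeq promoter 12 (52.2%) held the letters, against 6.5% of tested genes and 7.9% of all promoters, and 8 of the 13 with a lower interaction did. For NRF2 targets the letters TGACNNNGC on either strand were in 9 of 23 (39.1%), against 17.2% of tested genes and 12.4% of all promoters. For ribosome biogenesis the letters CACGTG were in 15 of 68 (22.1%), against 12.1% and 7.2%. A match describes the letters only.

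Antagonistic genes with a higher interaction were lowered by Cu/ES in most cases and were less low, or above the untreated level, in the combination. *Ovgp1*, a glycoprotein known from the oviduct, had 2.95, 2.51 and 3.37 FPKM in A, 0.887, 1.19 and 1.16 in B, 5.60, 6.16 and 7.38 in C and 2.92, 2.95 and 3.03 in D. Groups A and D overlapped, group B was lowest and group C highest, with an interaction of 1.81 ± 0.15 (limma with Benjamini-Hochberg, adjusted p = 7.90e-06). *Coq3*, a methyltransferase of ubiquinone synthesis, had 5.48, 5.77 and 5.81 FPKM in A, 2.89, 2.71 and 3.37 in B, 8.31, 10.2 and 9.86 in C and 5.04, 4.75 and 5.14 in D. Its order was C, A, D and B, with an interaction of 1.55 and no TCA effect past the test without Cu/ES. *Selenbp1*, a selenium-binding methanethiol oxidase, had 15.8, 10.9 and 16.1 FPKM untreated and 2.88, 1.38 and 3.14 with TCA, but at most 0.0562 FPKM in groups B and C. Its interaction of 2.14 therefore restates the fall without Cu/ES, and it did not pass with limma-voom on recovered reads (2.16). *Sh2d6* (1.53), an adaptor protein, and *Hilpda* (1.16), a lipid droplet protein induced by hypoxia, were also in this class. *Itgb3* (1.22), an integrin, *Jup* (1.36), a junction protein, *Bhlhe40* (1.20), a repressor induced by hypoxia, and *Nos2* (1.13), the inducible nitric oxide synthase, were named after their values were seen.

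The other lists, among them those tied to bile acids and copper, stand beside 17.7% higher and 19.8% lower of all genes tested. Cholesterol synthesis had 8 higher and 2 lower of 23 at the adjusted p and 0 past both thresholds, with a median of 0.29. TCA raised 10 of the 23 without Cu/ES and 17 with it. *Sqle*, the squalene epoxidase, had 50.9, 46.3 and 47.8 FPKM in A, 74.5, 76.4 and 72.5 in B, 189, 161 and 178 in C and 69.1, 68.8 and 70.4 in D, so each agent raised it and the combination went beyond their sum by 0.71 ± 0.09 (limma with Benjamini-Hochberg, adjusted p = 1.10e-04). *Sc5d* (0.69) was alike and *Ebp* (-0.72) went the other way. Chaperones of the endoplasmic reticulum had 6 higher and 4 lower of 21, with *Hyou1* at 0.80 and *Xbp1* at -0.63. Of 16 genes of copper handling and the metallothioneins 2 were higher and 6 lower, with *Atox1*, the copper chaperone, at -1.11 and *Mt2* at -0.98. *Atox1* was at 82.0 ± 2.57, 122 ± 8.75, 61.6 ± 8.25 and 90.3 ± 6.31 FPKM in groups A, B, C and D, with group C lowest. Of 25 listed genes of bile acid handling only 5 were expressed highly enough to be tested, with 1 higher and 2 lower, among them the export pumps *Abcb1b* (-0.96) and *Abcc4* (-0.62). Hedgehog genes had 6 higher and 0 lower of 21, with a median of 0.11, and 3 higher of the 10 left when a mean FPKM of at least 5 was required. Splicing factors of the SR family and their kinases had 9 lower and 3 higher of 18, with a median of -0.32 that had the same sign in every alternative. Targets of p53 had 4 higher and 5 lower of 21, regulators of MAPK feedback 3 higher and 2 lower of 18 (7 and 3 without the library of group C that stood apart), iron handling 3 higher and 4 lower of 17, and histones 2 higher and 1 lower of 11.

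**Figure D4:**
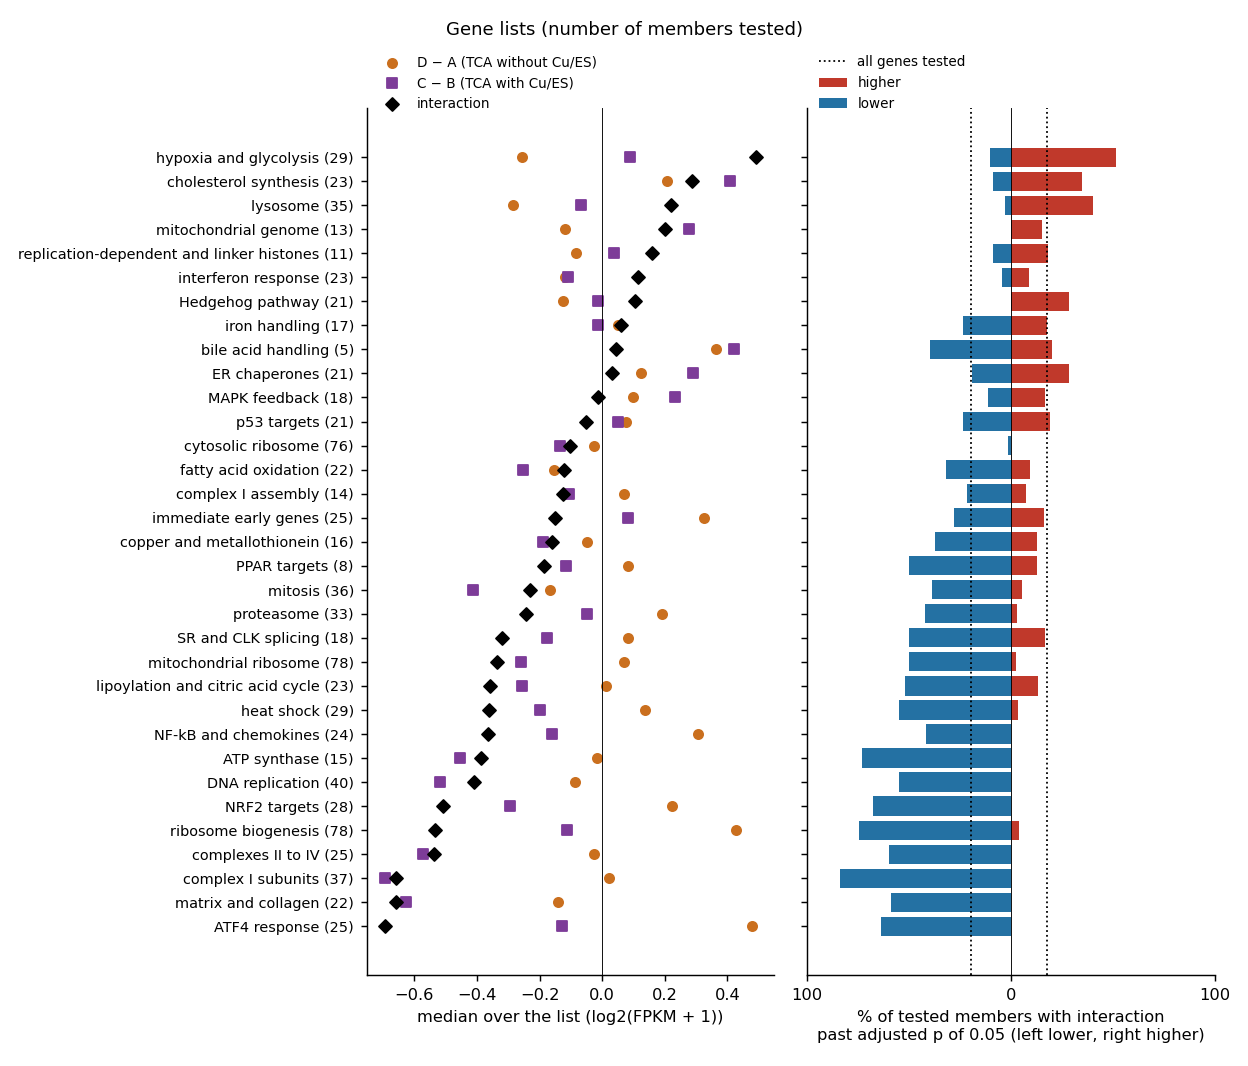
Left, median over each list of the TCA effect without Cu/ES (D - A), with Cu/ES (C - B) and of the interaction, in log2(FPKM + 1); right, percentage of tested members whose interaction passed an adjusted p of 0.05, lower to the left and higher to the right, with all genes tested (19.8% and 17.7%) as dotted lines. The ATF4 and ribosome biogenesis lists have medians of opposite sign for D - A and C - B, while complex I subunits are near 0 for D - A. The ribosome biogenesis list was drawn up after its values were seen.

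Over these lists the signs of the medians were stable where the medians were large. For the lists of complex I subunits, complexes II to IV, ATP synthase, the mitochondrial ribosome, the ATF4 response, NRF2 targets, heat shock, DNA replication, matrix, NF-kB, ribosome biogenesis, cholesterol synthesis, lysosome and hypoxia, the median interaction had the same sign in every alternative fit. The ribosome biogenesis list was drawn up after its values were seen, so its stable sign is a description only. The lists of MAPK feedback, iron handling, bile acid handling and interferon response changed sign in 8, 7, 5 and 4 alternatives.

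The class rule did not name gene length, which was recovered in bases from the FPKM values. Length still enters through FPKM, which is scaled to it and is used in the filter and in log2(FPKM + 1). Level differed as well: the median of the mean FPKM was 23.9 in genes with a lower interaction past both thresholds. It was 5.38 in those with a higher one and 8.39 over all genes tested. The parts of length and level were not tested apart. The median length was 3481 bases over all genes tested, 1155 in synergistic genes with a lower interaction and 1224 in antagonistic genes with a lower interaction, but 3755 in antagonistic and 3546 in sign-reversed genes with a higher interaction. Sign-reversed genes with a lower interaction (2326) and synergistic genes with a higher one (2338) lay between. Among the 712 genes under 1000 bases, 7.44% had a lower and 1.97% a higher interaction past both thresholds, and among the 1286 of 8000 bases or more it was 0.0% and 1.40%. The median interaction moved from -0.21 in the shortest to 0.13 in the longest group, and that of C vs. B from -0.20 to 0.03, while that of D vs. A moved from 0.0 to -0.07. Short length was shared by many genes with a lower interaction, and its part in the lists above was not tested. Cytosolic ribosomal proteins had a median length of 820.5 bases and complex I subunits one of 845.

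**Figure D5:**
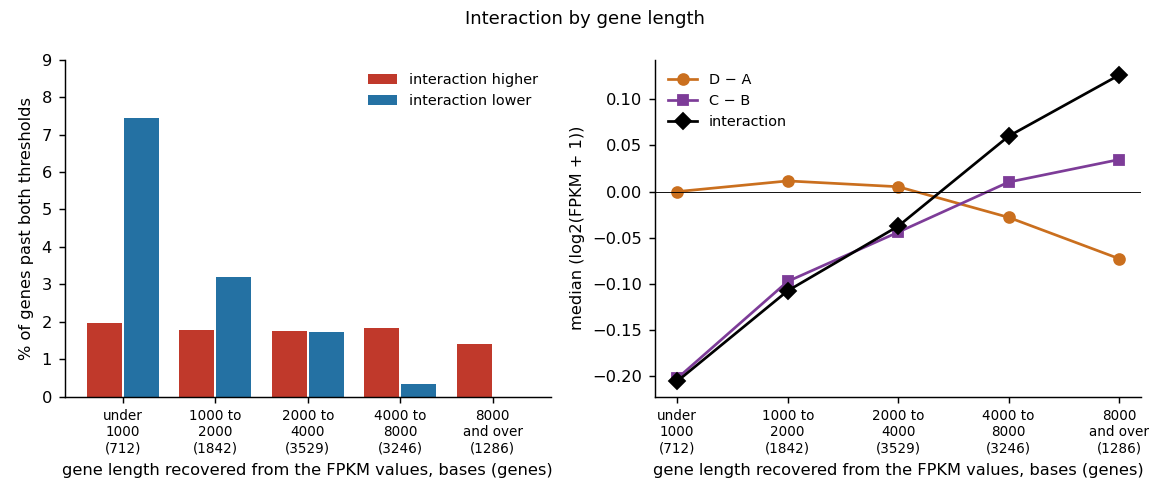
Interaction by gene length, in bases, with the number of genes in each group of lengths in brackets: left, percentage of genes past both thresholds; right, median change for D - A, C - B and the interaction in log2(FPKM + 1). Lower interactions fall from 7.44% in genes under 1000 bases to 0.0% at 8000 bases and over, while higher ones stay between 1.40% and 1.97%.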

How the data were processed

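Polyadenylated RNA of AML12 cells was sequenced in 12 libraries, 3 in each of groups A to D, which were taken from the sample labels. The deposited FPKM values were made by the authors from reads handled with fastp, HISAT2 and HTSeq on build GRCm39, per the submitters' processing notes; versions, annotation and strand setting are not given in the sources used here. Gene counts, lengths and library totals were worked back from these values: all 22212 genes above 0 in at least 2 libraries came out as whole reads within 0.02 read, and 99.1% of lengths were whole within 0.05 base. Totals were 29115011 to 39782142 reads, and a share of so many reads carries little counting error except in genes with few reads. All 12 columns of values were used.

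FPKM is not a count, so log2(FPKM + 1) was fitted with limma 3.58.1 (R 4.3.3) on group alone, with a trend of variance on mean level and 8 residual degrees of freedom. Only genes whose FPKM averaged 1 or more were kept. The contrasts were (C - B) - (D - A), D - A, C - B, B - A and C - A, two-sided, with Benjamini-Hochberg adjustment over the 10615 genes, an adjusted p of 0.05 and, for the 370 genes, an absolute value above 1. In simulated data for this interaction, run on 10615 genes of which 200 were changed, 98% of changes of 1.5 and 100% of changes of 2.5 were recovered. There were 4 false calls, and 99.4% of the recovered genes outside the sign-reversed class were sorted correctly. The changed genes were drawn only from those with a sizeable additive expectation, and the noise was independent between libraries. Recovery and sorting at smaller interactions, at small expectations or under other scalings were therefore not tested.

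The members, gene lists and tests were chosen with earlier results of these data known. Named genes were, for each class and sign, the 5 with the largest absolute interaction among those past both thresholds that averaged 5 FPKM or more in at least 1 group, in each list the 3 largest past the adjusted p, and *Dlat*, *Dlst*, *Fdx1* and *Lias*. Predicted genes and pseudogenes were left out, and not every gene that the rule allows is printed. Other genes are marked as named after their values were seen. Lists are described by counts and medians beside all genes tested.

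Promoters (250 bases before to 50 after each start) and gene types came from a RefSeq table of build GRCm38.p6, matched by symbol; 8504 tested genes had one. A gene was counted once if any of its listed starts held the letters. No coordinates of the build of the FPKM values were used. Alternatives changed the pseudocount (0.1), the filter on low values, the scaling, the trend, the replicate block, the test (limma-voom on recovered reads) and the libraries, each left out in turn. Sorting and figures used Python 3.11.15, pandas 2.3.3, numpy 2.4.6 and matplotlib 3.10.9.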

Additional observations from a re-analysis of the deposited data

Results flagged for a closer look

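Between cells with and without Cu/ES the change caused by TCA differed, by the interaction term in limma with Benjamini-Hochberg adjustment, in 370 genes past both thresholds and in 3984 genes at the adjusted p alone; both counts are listed here because a difference of effects between conditions was tested directly. Among the genes that the study followed, *Dlat* was picked by the same test, with an interaction of -0.549 (lower in 3 of 3 libraries of group C than in group B, limma adjusted p = 1.96e-03), and so was *Dlst*, with -0.389 (limma adjusted p = 4.89e-03).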

How the results depend on the processing

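Counts past both thresholds rested on the treatment of low values. With a pseudocount of 0.1 in place of 1, 878 genes passed (460 higher, 418 lower), 381 synergistic and 352 antagonistic, and with limma-voom on recovered reads 874 passed (435 higher, 439 lower), 340 synergistic, 304 antagonistic and 230 sign-reversed. A mean FPKM of at least 5 left 97 higher and 59 antagonistic genes, and at least 1 in every group left 109 higher, with fewer genes tested in both. TPM gave 624 genes, 424 of them higher, and 254 antagonistic; median-ratio scaling gave 161 antagonistic and quantile normalization 97 synergistic genes, and the cause of these moves was not tested. At the adjusted p alone the classes held 1800 synergistic, 1718 antagonistic and 466 sign-reversed genes. *Fdx1* turned to -0.0329 with the pseudocount of 0.1 and to -0.109 with limma-voom, and passed in neither.

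With 1 library left out at a time, 340 to 521 genes passed both thresholds, 171 to 272 higher and 167 to 249 lower, and 3321 to 4796 passed the adjusted p; 135 to 193 were synergistic, 103 to 138 antagonistic and 84 to 190 sign-reversed. The highest totals came without the second library of group C (521, 4796 and 190). Of the 370 genes, 231 were called in all 12 of these fits. Among the 10 other alternatives, 215 were called in each one that tested them, and 175 were called in every alternative of either kind that tested them. Same-numbered libraries deviated together in some pairs of groups (r of -0.171 to 0.579, above 0 in 14 of 18 pairs, mean 0.125, against a mean of -0.059 over 36 other pairs). The highest r was between A2 and D2. In each of the 4 groups the second library had the highest median of the interferon list and the lowest of the hypoxia list. Not every pair exceeded 0.1, and the main fit left the number out. Its p-values therefore do not take up a shift shared by same-numbered libraries. With the replicate block 375 genes passed (187 higher, 188 lower), 139 synergistic, 89 antagonistic and 147 sign-reversed, 4190 passed the adjusted p, and all 370 were called again, 343 in the same class.

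Of 119 genes under the naming rule, 117 passed the adjusted p, 99 had the same call in every alternative and 1 changed sign. Values rest on 3 libraries a group, and genes near 0 in a group are limited by their few reads.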
